A study of Mus musculus and Oryctolagus cuniculus and Sus scrofa with 20 samples.

Results

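miR-99a-5p, miR-100-5p and miR-125b-5p were followed through 20 small RNA libraries of male germ cells and testes from mouse, rabbit, pig and rat. A read of 18 to 26 nt was given to a miRNA when its first 18 nt equalled those of the mouse mature sequence, and a level is the number of such reads per 1000000 reads given to any of the 1660 mature miRNA entries of the reference list (RPM). All 3 of 3 miRNAs were found, in each of the 20 libraries, and the rule that defines them uses sequence alone.

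The mouse stage series holds 7 libraries of wild type C57BL/6 males: cultured spermatogonial stem cells (SSCs), pre-leptotene and leptotene spermatocytes from day 9, zygotene spermatocytes from day 13, pachytene spermatocytes and round spermatids from day 25, and mature sperm. The knockout experiment holds 3 SSC libraries labelled C57BL/6 x DBA2 F1, postnatal day 15: a control culture and 2 miR-741 knockout lines, 1 made with TALEN and 1 with CRISPR plasmids, for which single colonies were picked after transfection and checked by Sanger sequencing. The growth protocol describes SSCs from an F1 male with an actin-EGFP transgene, kept on MEF (mouse embryonic fibroblast) feeder cells, and does not say whether the SSCs labelled C57BL/6 had another source. Wild type rabbit testes were taken at postnatal day 10, 30, 60, 70, 80, 90, 110 and 180, and their RNA had an exogenous spike-in added. The remaining 2 libraries are wild type adult testes of pig and of rat. Each group is 1 library and the labels do not say whether animals were pooled, so outside the rabbit age series no difference has a replicate check. Intervals given below are 95% exact intervals that cover the counting error of reads only. The reads carry no molecular identifiers, so repeated copies of a molecule could not be told from separate molecules.

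miRNAs bind messenger RNAs mainly through the seed, bases 2 to 8, and lower their translation and stability. miR-125 is the vertebrate relative of lin-4, the first miRNA described in worms, and in many animals a miR-99/100 gene, a let-7 gene and a miR-125 gene lie together in one cluster. miR-99 and miR-100 are known for targeting genes of the mTOR and IGF1 receptor pathway, and the clusters are carried by long non-coding host transcripts. The mature sequences below, from RefSeq on GRCm38.p6, are shown because the first pair differ by a single base and so set what can be told apart by reads. Capitals mark the seed. The last pair are the relatives from the mouse cluster on chromosome 17, used for comparison.

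miR-99a-5p: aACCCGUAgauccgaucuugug
miR-100-5p: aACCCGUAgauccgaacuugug
miR-125b-5p: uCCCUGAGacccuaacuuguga
miR-99b-5p: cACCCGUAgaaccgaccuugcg
miR-125a-5p: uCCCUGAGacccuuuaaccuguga

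miR-99a and miR-100 share their seed and 21 of 22 bases; the substitution from miR-99a to miR-100 is U16A, counted from the 5′ end. miR-99b shares the seed and differs from miR-99a at 4 bases. miR-125b shares its seed with miR-125a and miR-351, among others. In GRCm38, miR-99a-5p is encoded at chr16:77598940-77598961, within an intron of the non-coding gene Mir99ahg, which also holds let-7c-1 and a miR-125b copy at chr16:77646279-77646300. miR-100-5p is encoded at chr9:41531437-41531458, within an intron of the non-coding gene 3110039I08Rik, which also holds let-7a-2 and the other miR-125b copy at chr9:41581940-41581961. All 4 genes lie on the plus strand, per GENCODE M21. The miR-125b-1 and miR-125b-2 hairpins also overlap an exon of Gm28119 and of C130023A14Rik on the same strand, and the miR-100 hairpin an antisense exon of Gm48742. The mature miR-125b sequence is the same from both copies, so its reads do not tell the copies apart.

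Libraries held 597732 to 25908109 reads, of which 196752 (CRISPR line) to 6087617 (pre-leptotene) were given to miRNAs. That was 1.38% of the pachytene library, 2.09% of that of round spermatids and 53.3% of rabbit testis at day 10. miR-741-3p, the knocked-out miRNA, had 712660 reads in wild type SSCs and 80096 in the control culture against 3 and 5 in the TALEN and CRISPR lines. The 5 germ cell X-linked markers summed to 4.17% to 65.7% of miRNA reads in the mouse stages and 18.1% to 34.6% in the SSC cultures, with none at 0, and the cultured stem cell list (4 of 5 measured) to 0.115% to 0.171% in the SSC cultures. The X-linked list includes miR-741-3p itself, at 171011 RPM in the control culture against 11.7 and 25.4 in the TALEN and CRISPR lines. Its sums in the knockout lines therefore hold almost no miR-741-3p. In rabbit testis the same 5 mouse sequences summed to 0.0247% to 0.118%.

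In the mouse stage series, relative to miRNA reads, miR-99a was low in SSCs, high in meiotic prophase and highest in sperm, while miR-100 stayed within a narrower range and miR-125b was low from pre-leptotene cells to round spermatids. Scaled to all reads, miR-99a was higher in zygotene cells (245904 of 15317355 reads) than in sperm (220514 of 25908109). By that scaling SSCs (14721 of 20302560) were above pachytene cells (4791 of 22785285). SSCs had 2869.8 RPM of miR-99a. The 4 spermatocyte stages had 19999.6 (pre-leptotene), 20207 (leptotene), 55471 (zygotene) and 15252.5 (pachytene), followed by 9337 for round spermatids and 62025 for mature sperm. It was the 55th most abundant listed entry in SSCs, the 7th in pre-leptotene and leptotene cells, the 3rd in zygotene cells and the 4th in sperm. The intervals of neighbours in this order overlapped for pre-leptotene and leptotene cells only.

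SSCs had 3358 RPM of miR-100, the spermatocyte stages 2180.2 (pre-leptotene), 2169 (leptotene), 4031 (zygotene) and 3139 (pachytene), round spermatids 7902 and sperm 5078. Its highest stage relative to miRNA reads was thus the round spermatid, where miR-99a was at its lowest after SSCs. Scaled to all reads, miR-100 was higher in zygotene cells (17868 of 15317355 reads) than in round spermatids (3888 of 23552284). Its intervals overlapped between SSCs and pachytene cells and between pre-leptotene and leptotene cells. SSCs had 4020.2 RPM of miR-125b, the spermatocyte stages 795 (pre-leptotene), 637 (leptotene), 1263 (zygotene) and 567 (pachytene), round spermatids 437 and sperm 7411. Both ends of the series were therefore above every stage between them for miR-125b. The pachytene value rests on 178 reads (interval 486.5 to 656) and the round spermatid value on 215 reads (380.5 to 499), and the pachytene interval overlapped those of leptotene cells and round spermatids.

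**Figure D1:**
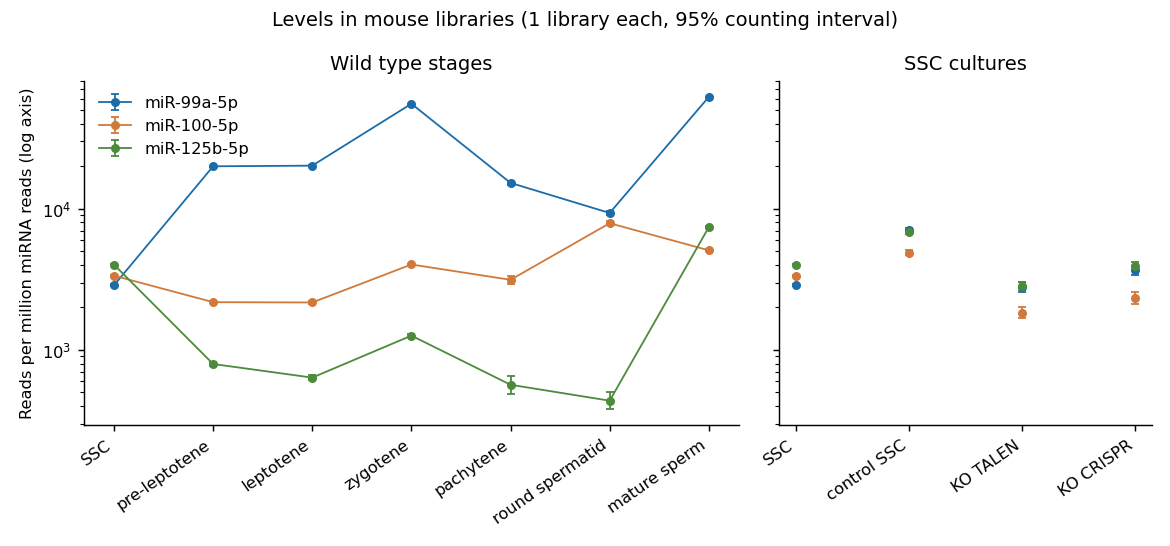
Levels of the 3 miRNAs in reads per 1000000 miRNA reads (RPM) on a log axis, for the 7 wild type mouse stages (left, lines join stages) and 4 SSC cultures (right); each point is 1 library and bars are 95% counting intervals. In the stage series miR-99a lies below the other members in SSCs (2869.8 RPM) and above them at each later stage, reaching 62025 in sperm. In the control culture miR-99a (7046 RPM) and miR-125b (6862) are close, and the interval of their ratio (0.978 to 1.08) includes 1.

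A difference between consecutive stages was counted at 4-fold or more over the entries that reached 100 reads in either library. From SSC to pre-leptotene miR-99a was higher by 2.80 on the log2 scale (interval 2.78 to 2.83), 1 of 12 of 333 entries that were higher (3.6%). miR-125b fell by 2.34 at the same step (interval -2.38 to -2.29), where 54.1% of entries were at least 4-fold lower and the median of all entries fell by 2.30. With TMM or DESeq2 size factors the fall of miR-125b was 0.57 or 0.73 and passed 4-fold under neither. miR-100 changed by -0.62, which is 1.68 above the median of all entries and turned positive under 3 of 7 scalings or read definitions. The SSCs were cultured and the spermatocytes were taken from testes, so culture and stage cannot be told apart here. The mesenchymal or feeder marker list, of which 3 of 5 were measured, summed to 19289 RPM in SSCs, 1447 in pre-leptotene and 313 to 2808 in the later stages, and its part in these differences was not tested.

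From pre-leptotene to leptotene miR-99a changed by 0.01 and miR-100 by -0.01 on the log2 scale and miR-125b fell by 0.32. At this step 0.472% of 212 entries were 4-fold higher and 0 were 4-fold lower. From leptotene to zygotene the members were higher by 1.46 (miR-99a), 0.89 (miR-100) and 0.99 (miR-125b), against a median of 0.71 over 239 entries. None reached 4-fold, which 11.3% of entries did upward and 0% downward. The Sertoli or gonadal list (miR-202-5p and miR-202-3p) summed to 153 RPM in leptotene and 3391 in zygotene cells, and its part was not tested.

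From zygotene to pachytene miR-99a fell by 1.86 (interval -1.90 to -1.82), miR-125b by 1.16 and miR-100 by 0.36. The median of 247 entries fell by 0.13, and 13.4% were at least 4-fold lower and 9.31% higher; no member passed. The relatives on chromosome 17 went further: miR-99b fell by 2.75 and miR-125a by 2.77, both past 4-fold. In the pachytene library hairpin reads were 1.53 times the listed miRNA reads; scaled to reads in any annotated hairpin, a choice made after the data were seen, miR-99a fell by 2.26, past 4-fold, and with TMM factors by 2.08. Scaled to all reads, of which miRNA reads were 28.9% in zygotene and 1.38% in pachytene cells, it fell by 6.25.

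From pachytene to round spermatid miR-100 was higher by 1.33 (interval 1.23 to 1.43) while miR-99a fell by 0.71 (interval -0.77 to -0.65) and the median of 129 entries fell by 0.37. No member passed 4-fold, which 5.43% of entries did upward and 13.2% downward. The miR-100 difference was 1.33 to 3.30 under the 7 scalings or read definitions, and that of miR-99a -0.74 to 0.04.

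From round spermatid to sperm miR-125b was higher by 4.08 (interval 3.89 to 4.28), or 17.0-fold, and miR-99a by 2.73 (interval 2.69 to 2.77), both among the 22.5% of 204 entries at least 4-fold higher (20.1% were lower). miR-100 changed by -0.64 and was higher only when scaled to all reads. miR-125a also passed 4-fold, at 3.24, and miR-99b did not, at 0.19. In sperm the epithelial list (5 of 5 measured) summed to 16259 RPM against 141 to 386 in the 6 other stages, and the blood list (3 of 5 measured) to 1348 against 1.45 to 44.6, with no measured marker of either list at 0 in sperm. Whether either list bears on these differences was not tested. Between SSCs and sperm miR-99a differed by 4.43 (interval 4.41 to 4.46), where 11.5% of 339 entries were at least 4-fold higher and 54% lower, and miR-100 and miR-125b by 0.60 and 0.88.

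Counts of miRNAs within 1 library need no denominator, so the ratio of miR-99a to miR-100 was followed next. Wild type SSCs had 0.855 miR-99a reads per miR-100 read (interval 0.836 to 0.874). The ratio was 9.17 at pre-leptotene, 9.32 at leptotene, 13.8 at zygotene and 4.86 at pachytene (4.54 to 5.21), then 1.18 for round spermatids (1.13 to 1.23) and 12.2 for sperm. The ratio was thus above that of SSCs in each spermatocyte stage and highest at zygotene. The intervals of pre-leptotene (9.01 to 9.34) and leptotene cells (9.13 to 9.51) overlapped. It fell back near 1 in round spermatids and was high again in sperm. In the comparison with SSCs, culture and stage cannot be told apart. How well each sequence is ligated was not measured, so the ratio is compared between libraries rather than read as a ratio of molecules. Where only reads that hold the full mature sequence are kept, the ratio was 0.52 for SSCs and 0.51 for round spermatids, against 5.71 (pre-leptotene), 5.08 (leptotene), 7.05 (zygotene), 4.90 (pachytene) and 6.22 (sperm). The order of the stages then differed only between the neighbours pre-leptotene and leptotene and between SSCs and round spermatids, and the 4 SSC cultures and round spermatids lay below 1.

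**Figure D2:**
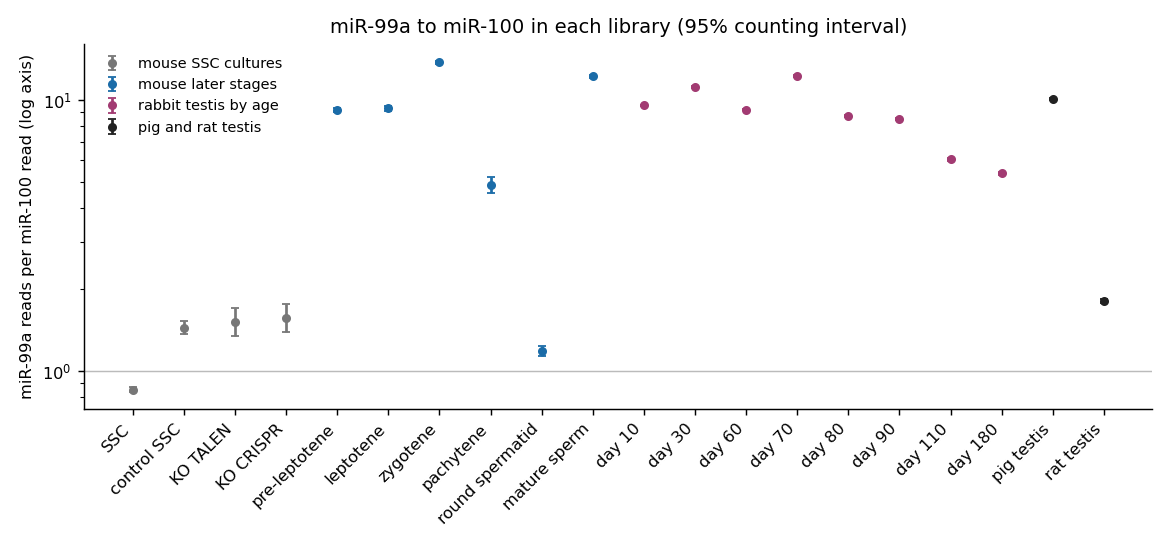
miR-99a reads per miR-100 read in each of the 20 libraries on a log axis, with the grey line at 1; points are single libraries and bars are 95% counting intervals. The ratio is near 1 in the 4 SSC cultures and in round spermatids and between 4.86 and 13.8 in the other mouse stages.

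A misread base at position 16 would turn one of these miRNAs into the other. Reads that matched the other 17 of the first 18 bases but carried C or G at that position, which belong to neither, were 0% to 0.0553% of the reads at this position over the 20 libraries. Reads with the miR-100 base were 6.77% (zygotene) to 53.9% (SSC). In zygotene cells, where miR-99a outnumbered miR-100 most among the mouse libraries, 59 reads carried C and 2 carried G against 17868 with A.

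The passenger strands, or 3p arms, of the 2 miR-125b genes do differ in sequence and were used to split miR-125b by locus. They are shown with the seed in capitals, and below them the most frequent form in rabbit, pig and rat, in which the capital marks the base that differs from mouse, T11C counted from the 5′ end of the arm.

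miR-125b-1-3p: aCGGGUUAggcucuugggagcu
miR-125b-2-3p: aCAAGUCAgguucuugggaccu
rabbit, pig and rat read: acaagtcaggCtcttgggacct

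Because of that base, 3p arms were counted with up to 1 mismatch in the first 18 nt, a choice made after the data were seen. Of the 3p-arm reads, the copy on chromosome 16 (miR-125b-2) gave 76 of 582 in SSCs (13.1%, interval 10.4% to 16.1%) and 5 of 68 in the control culture (7.35%, 2.43% to 16.3%). In pre-leptotene cells it gave 76 of 91 (83.5%, 74.3% to 90.5%), in leptotene 44 of 45 (97.8%) and in zygotene 284 of 304 (93.4%, 90.0% to 95.9%). Pachytene cells and round spermatids had 4 and 12 such reads, all from miR-125b-2, and sperm had 240 of 305 (78.7%, 73.7% to 83.2%). The intervals of SSCs and of the control culture thus lay below those of all 6 later stages, the widest being 39.8% to 100% at pachytene. The TALEN line had 3 of 12 (25.0%, 5.49% to 57.2%) and the CRISPR line 0 of 4 (up to 60.2%), whose intervals overlapped that of pachytene cells.

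**Figure D3:**
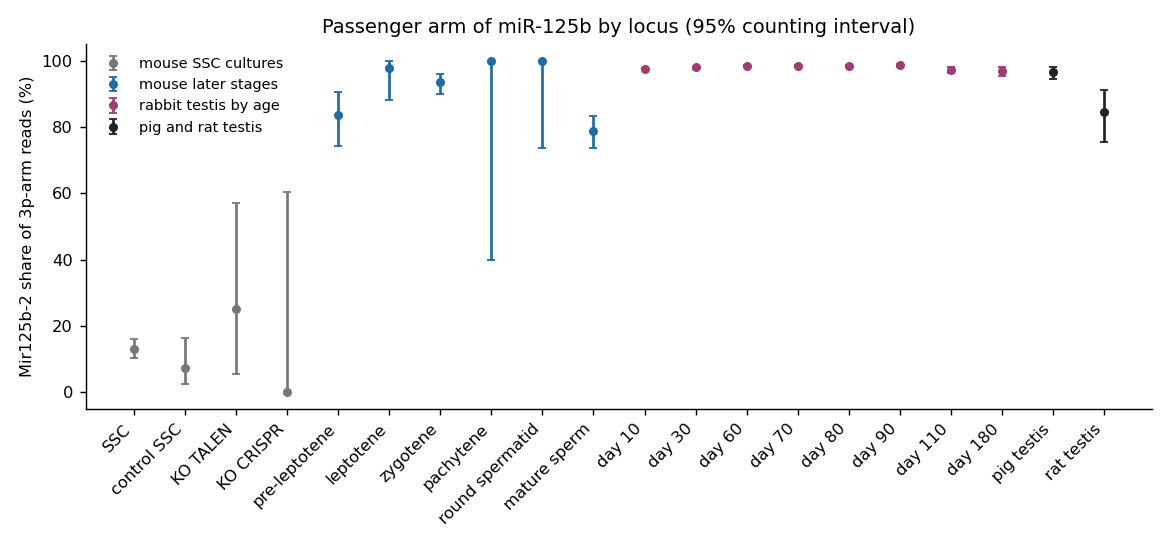
Share of miR-125b 3p-arm reads that came from the Mir125b-2 copy, in percent, for each library; points are single libraries and bars are 95% counting intervals. Mouse SSC cultures lie at 25.0% or below, later mouse stages at 78.7% or above and the 8 rabbit ages between 96.8% and 98.6%.

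In levels, the miR-125b-1 arm had 98.6 RPM in SSCs, 2.46 in pre-leptotene and 0.21 in leptotene cells, and the miR-125b-2 arm 14.8, 12.5 and 9.15. From SSC to pre-leptotene the first differed by -5.32 on the log2 scale and by -3.55 with TMM factors, and was lower under each of 5 scalings. The second differed by -0.25, but by 0.62 when scaled to all reads, 1.52 with TMM factors and 1.37 with DESeq2 size factors, so its direction was not fixed. Whether the 2 copies keep their 3p arms to the same extent was not tested. A second readout moved less. Mature reads that run past the end carry T from miR-125b-1 and G from miR-125b-2, and G made up 24.3% of such reads in SSCs (197 with G and 613 with T, interval 21.4% to 27.4%), 36.0% in zygotene cells (28.0% to 44.5%) and 24.4% in sperm. Added bases enter these reads as well, since A followed the annotated end in 2166 SSC reads and no copy has A there.

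The let-7 partners of the clusters, let-7a and let-7c, share their first 18 bases and differ at base 19. let-7c, from the chromosome 16 cluster and a further gene on chromosome 15, made up 27.3% of let-7a and let-7c reads of SSCs, and 18.5%, 18.1% and 33.3% of those of pre-leptotene, leptotene and zygotene cells. It then made up 3.87% in pachytene cells, 1.76% in round spermatids and 24.3% in sperm. let-7c had 1597 RPM in zygotene cells, 570 in pachytene cells, 303 in round spermatids and 6968 in sperm, and so moved the same way as miR-99a at these 3 steps. At the SSC to pre-leptotene step let-7c went from 801 to 410.0 RPM, a log2 difference of -0.97 where the median of all entries fell by 2.30. Its direction turned with the scaling, to 0.80 with TMM factors and 0.65 with DESeq2 size factors, while miR-99a was higher under each.

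Among the SSC cultures the members were close to one another in level. In the control culture miR-99a had 7046 RPM, miR-100 4879 and miR-125b 6862, against 2869.8, 3358 and 4020.2 in the wild type SSC library of the stage series. miR-99a differed by 1.30 on the log2 scale (interval 1.24 to 1.35), past the 2-fold used for cultures, as did 3.12% of 320 entries upward and 20.3% downward. With the full mature sequence the difference was 0.72. The pair differ in the strain of their labels, and strain and culture cannot be told apart.

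All 3 members were lower in both knockout lines than in the control, though not than in every wild type culture: for miR-99a the SSC library of the stage series, at 2869.8 RPM, lay between the lines, and for miR-125b, at 4020.2, it was close to the CRISPR line. miR-99a had 2793 RPM in the TALEN line and 3675 in the CRISPR line, miR-100 1841 and 2338, and miR-125b 2821 and 3939. The log2 differences in the TALEN line were -1.33 (interval -1.45 to -1.22) for miR-99a, -1.41 (-1.55 to -1.26) for miR-100 and -1.28 (-1.40 to -1.17) for miR-125b, and 15.3% of 150 entries were at least 2-fold lower there and 16% higher. In the CRISPR line they were -0.94, -1.06 and -0.80, with 10.9% of 147 entries at least 2-fold lower and 9.52% higher. Of the 3, only miR-100 was at least 2-fold lower in both lines, as were 14 of 150 entries (9.33%); with TMM or DESeq2 size factors miR-99a and miR-125b passed 2-fold in the CRISPR line too. Both comparisons share the control library. The mesenchymal or feeder list summed to 16374 RPM in the control, 5645 in the TALEN line and 7481.5 in the CRISPR line, with none of its 3 measured markers at 0, and its part in the lower levels was not tested. The proportions among the members moved little: miR-99a was 37.5%, 37.5% and 36.9% of their summed reads in the control, TALEN and CRISPR libraries.

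In rabbit testis miR-99a was the most abundant listed entry at every age and declined with age. The reference list lacks miR-34c-5p and miR-143-3p, among others, so ranks are among listed entries only. It had 321156 RPM at day 10, 285326 at day 30, 267875 at day 60, 291704 at day 70, 264403 at day 80, 258851 at day 90, 216931 at day 110 and 190016 at day 180. The 3 members together made up 37.2% of miRNA reads at day 10 and 23.8% at day 180. In whole testis, fewer cells of a type and less RNA per cell cannot be told apart.

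The slope of miR-99a was -0.44 log2 units per 100 days (SE 0.089, n = 8, edgeR quasi-likelihood test, Benjamini-Hochberg adjusted p = 0.00517 over 206 entries). Of these entries 20.4% fell and 22.3% rose at an adjusted p under 0.05. Spearman's rho with age was -0.93 (exact permutation p = 0.00223, adjusted 0.0153; 17% of entries fell and 16% rose by this test) and Pearson's r -0.95 (exact permutation p = 0.000446). r was -0.80 without days 10 and 180, the ages farthest from the median. Without day 180 the slope was -0.45 with an edgeR adjusted p of 0.0576, and without both ages -0.44 with 0.137, so the call rests on the oldest library while the size of the slope does not.

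miR-100 and miR-125b gave no such trend. miR-100 had 33612 RPM at day 10, 25521 at day 30, 29063 at day 60, 23759 at day 70, 30343 at day 80, 30353 at day 90, 35969 at day 110 and 35430.2 at day 180. Its slope was 0.18 (SE 0.147, edgeR adjusted p = 0.324) and rho 0.55 (exact permutation p = 0.171, adjusted 0.269), with r 0.47, or 0.76 without days 10 and 180. miR-125b had 17609.8 RPM at day 10, 15158 at day 30, 17031 at day 60, 19157 at day 70, 17599.6 at day 80, 17368 at day 90, 17105 at day 110 and 12817.5 at day 180, so that the oldest testis was lowest and the others had no order by age. Its slope was -0.20 (SE 0.146, edgeR adjusted p = 0.289), or 0.08 without day 180, and rho -0.33 (exact permutation p = 0.428, adjusted 0.554); r was -0.58, or 0.52 without days 10 and 180.

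These slopes are relative to miRNA reads, which themselves fell from 53.3% of reads at day 10 to 7.02% at day 180. Scaled to all reads the slopes were -2.41 for miR-99a (edgeR adjusted p = 0.00217), -1.77 for miR-100 (edgeR adjusted p = 0.00581) and -2.19 for miR-125b (edgeR adjusted p = 0.00572). Under this scaling 70.4% of the 206 entries fell and 3.88% rose, so a fall under it is shared by most entries. The relatives on the other cluster moved as follows: miR-99b rose by 0.54 per 100 days (edgeR adjusted p = 0.0111), let-7e fell by 0.50 (edgeR adjusted p = 0.0400) and miR-125a gave 0.12 (edgeR adjusted p = 0.572). miR-99b therefore went from 5.46% to 12.8% of the reads with the seed ACCCGUA, and miR-99a from 85.6% to 73.5%.

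**Figure D4:**
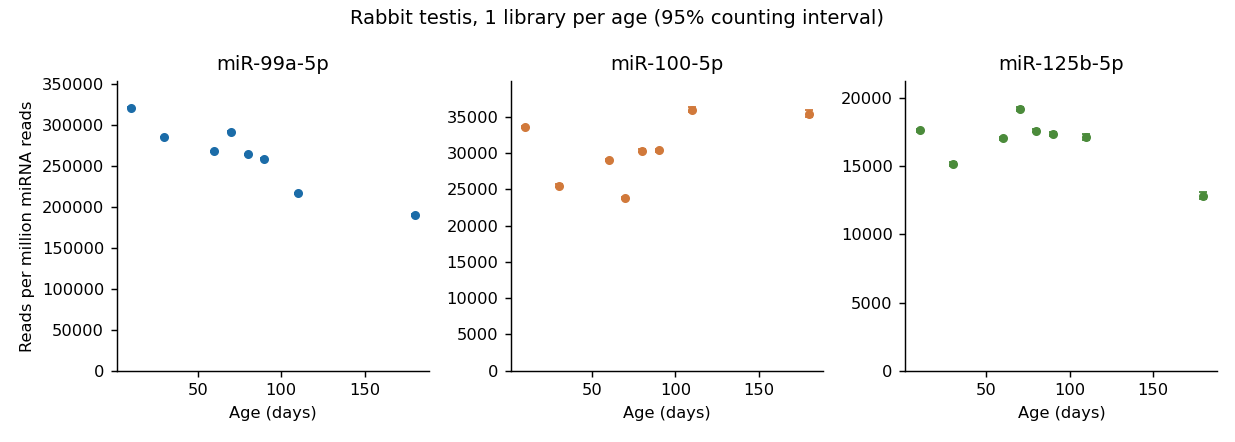
Levels of the 3 miRNAs in rabbit testis in reads per 1000000 miRNA reads (RPM) (linear axes from 0) against age in days; each point is 1 library and the bars, mostly smaller than the points, are 95% counting intervals. miR-99a goes from 321156 at day 10 to 190016 at day 180, while miR-100 has its highest values at days 110 and 180.

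The ratio of miR-99a to miR-100 was 9.55 at day 10, 11.2 at day 30, 9.22 at day 60, 12.3 at day 70, 8.71 at day 80, 8.53 at day 90, 6.03 at day 110 and 5.36 at day 180. Among 11 relations of ratios and read ends with age, rho was -0.83 for this ratio (exact permutation p = 0.0154, adjusted 0.0338) and r was -0.81, or -0.78 without days 10 and 180. Leaving out any of days 10, 30, 60, 80, 90, 110 or 180 raised the adjusted p above 0.05, with rho between -0.96 and -0.75 over all 8 omissions. With the full mature sequence rho of miR-99a to miR-100 was weaker, as given in the last section. The ratio of the pair to miR-125b gave rho -0.55 (exact permutation p = 0.171, adjusted 0.188), with r -0.57, or -0.95 without days 10 and 180. With the full mature sequence rho for the pair to miR-125b was -0.95 (exact permutation p adjusted to 0.00228).

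The other products of the miR-99a type cluster are given as description, since they were looked at after the values were known. let-7c had 24168 RPM at day 10, 21662 at day 30, 15371 at day 60, 13457 at day 70, 13171 at day 80, 14426 at day 90, 13319 at day 110 and 11408 at day 180, while let-7a had its 2 highest values, 40989 and 40691, at days 110 and 180. The miR-125b-2 arm had 2428 RPM at day 10 and 955 at day 180, the miR-125b-1 arm 22.4 to 63.6. The miR-125b-2 type arm made up 96.8% to 98.6% of 3p-arm reads at the 8 ages, far from the 13.1% of mouse SSCs. The base after the annotated end of the mature reads did not show this difference. Of reads with G or T there, G made up 20.3% (day 10) to 31.1% (day 70), against 24.3% in mouse SSCs. Rabbit hairpin sequences were not used, so the copy behind rabbit miR-125b was not settled. Rabbit gene positions were not examined, and the cluster names here are those of the mouse sequences. Over the same ages the mesenchymal or feeder list went from 38777 to 10262 RPM and the late germ cell list (2 of 3 measured) from 21.9 to 9791. The epithelial list went from 205 to 8012 RPM, the blood list from 262 to 811 and the Sertoli or gonadal list from 4628 to 12487 with its highest value, 20985, at day 70. At each age 1 of the 2 Sertoli or gonadal markers was at 0. Of the epithelial list 1 of 5 markers was at 0 at days 30, 60, 70, 110 and 180. For all 5 lists their part in the trends was not tested.

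Adult pig testis had 370583 RPM of miR-99a, 36780.2 of miR-100 and 5808 of miR-125b, and adult rat testis 133103, 73422 and 16324. miR-99a was the most abundant listed entry in both, and miRNAs outside the list were not ranked. The rat library has the largest share of miRNA reads outside the reference list, and scaled to hairpin reads its values were 72238, 39848 and 8859. The ratio of miR-99a to miR-100 was 10.1 in pig and 1.81 in rat (1.78 to 1.85), so rat lay below every rabbit age. The miR-125b-2 type arm made up 96.6% of 3p-arm reads in pig (373 of 386) and 84.4% in rat (81 of 96, interval 75.5% to 91.0%). Of mature reads with G or T after the annotated end, G made up 44.2% in pig and 22.8% in rat. Species were matched to mouse sequences and differ in age and library, and no test between them was possible.

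The 3′ ends of the reads differed between the miRNAs and between libraries. The forms whose shares are given next are shown as they were read, in DNA letters, with bases that the mouse hairpin does not encode in capitals. Hairpins of rabbit, pig and rat were not used, so whether their genomes encode such bases was not examined.

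miR-99a, 1 nt short: aacccgtagatccgatcttgt
miR-99a, added A: aacccgtagatccgatcttgtgA
miR-100, 1 nt short: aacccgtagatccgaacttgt
miR-100, added T: aacccgtagatccgaacttgtgT
miR-125b, annotated end: tccctgagaccctaacttgtga
miR-125b, 1 nt short with added T: tccctgagaccctaacttgtgT

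Most miR-99a reads ended 1 nt before the annotated end, 56.9% (rabbit day 30) to 79.6% (pig), and the annotated end itself held 1.99% to 11.3%. The form with A added to the full sequence was the most frequent extension, at 11.6% (rat) to 28.0% (rabbit day 30), and T was added in 0.972% to 2.54%. miR-100 shares the bases of this 3′ end and yet had T added in a larger share of reads. T was added in 16.8% and A in 6.69% of its reads in SSCs, and T in 14.8% and A in 8.86% in pre-leptotene cells. In round spermatids A was more frequent, in 21.2% of miR-100 reads against 8.54% with T, as it also was in rabbit testis at each age from day 30 to day 110, and in sperm both were at 13.8%. The T-added form made up 2.74% (rat) to 16.8% (SSC) of miR-100 reads, and in each of the 20 libraries its share was above that of the T-added form of miR-99a.

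miR-125b ended at its annotated end in 43.4% of SSC reads (interval 42.7% to 44.1%), 27.9% in the control culture and 29.2% to 30.7% in the knockout lines. At pre-leptotene this was 13.5% (12.6% to 14.5%), at leptotene 13.1%, at zygotene 20.04% and at pachytene 19.1%, with 31.2% for round spermatids and 11.2% for sperm. The form 1 nt short with an added T made up 6.85% of SSC reads, with 26.3% at pre-leptotene, 26.4% at leptotene, 18.1% at zygotene and 20.2% at pachytene, and 34.2% for sperm. It was 8.37% in round spermatids, on 215 reads, and 8.84% to 9.29% in the SSC cultures of the knockout experiment. Neither mouse copy encodes T at that position. The values of the 4 SSC cultures and of the 4 spermatocyte stages did not overlap in either share. The annotated-end shares of the other members did not overlap between these libraries either: they were 22.0% to 29.2% in the cultures and 7.81% to 15.8% in the spermatocytes for miR-100, and 4.56% to 9.58% and 1.99% to 2.81% for miR-99a. For miR-125b the SSC library of the stage series and the control culture also differed from each other, at 43.4% and 27.9%. Culture, library and cell type cannot be told apart here.

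**Figure D5:**
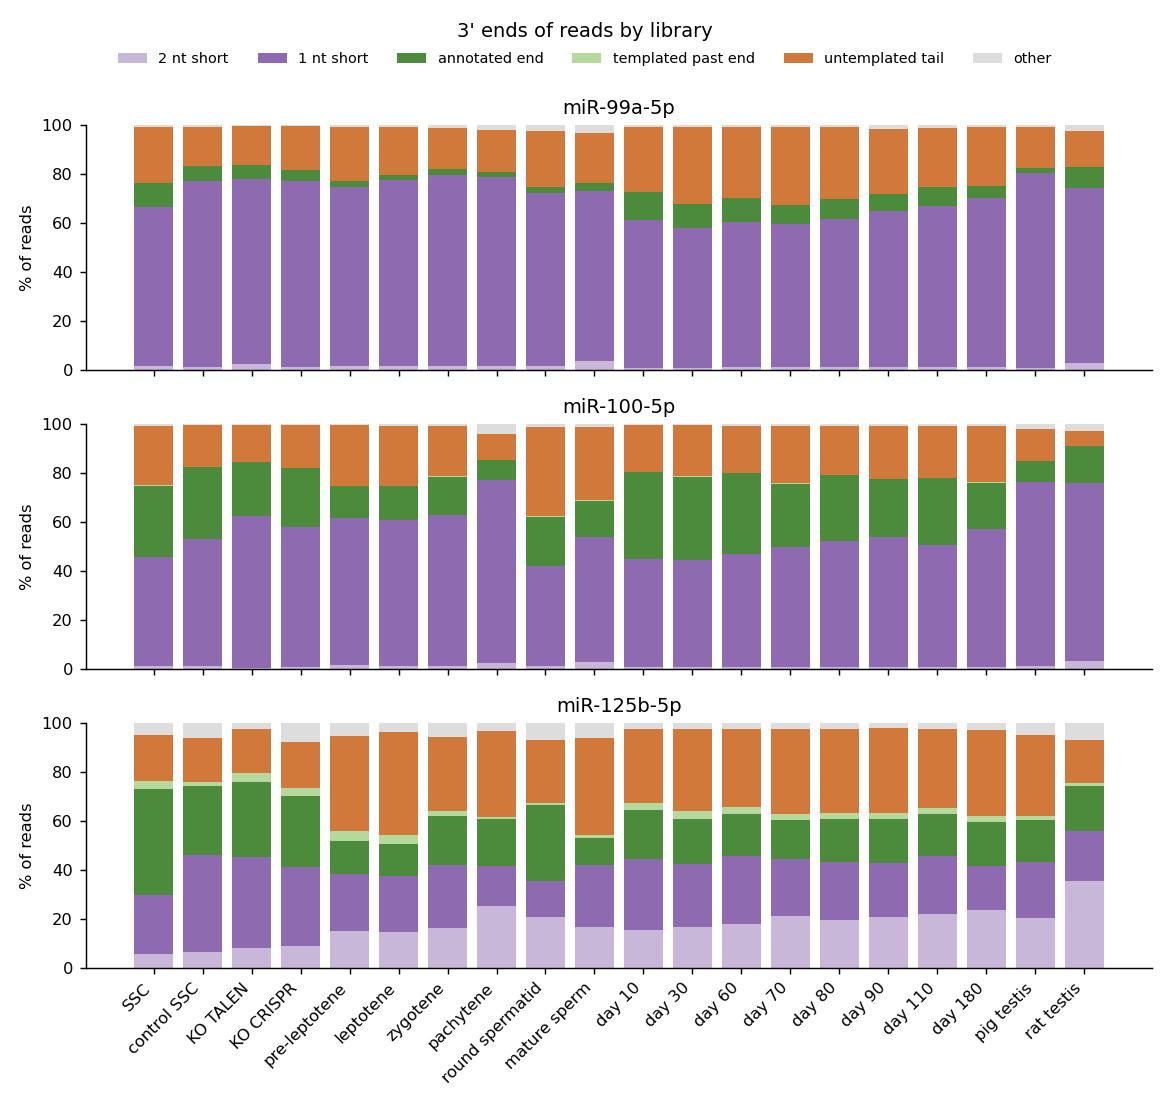
Share of reads by 3′ end, in percent of each miRNA's reads, for the 3 miRNAs in each of the 20 libraries; colours give reads 2 nt or 1 nt short of the annotated end, at it, templated past it, and with 1 to 3 bases the mouse hairpin does not encode. The mouse hairpin was used for all species. miR-99a has its largest class 1 nt short in every library, and miR-125b at its annotated end drops from 43.4% in SSCs to 13.5% in pre-leptotene cells.

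In rabbit testis the share of reads at the annotated end fell with age for miR-99a, from 11.3% at day 10 to 5.05% at day 180 (rho -0.88, exact permutation p = 0.00724, adjusted 0.0338; r -0.93, or -0.77 without days 10 and 180). For miR-100 it fell from 35.2% to 19.0% (rho -0.83, exact permutation p = 0.0154, adjusted 0.0338; r -0.91, or -0.77). For miR-125b it was 15.7% to 19.8% (rho -0.21, exact permutation p = 0.619, adjusted 0.619; r -0.31, or -0.29). Mean read length fell with age for miR-100, from 21.72 to 21.62 nt (rho -0.86, exact permutation p = 0.0107, adjusted 0.0338; r -0.82, or -0.74), and for miR-125b, from 21.58 to 21.46 nt (rho -0.88, exact permutation p = 0.00724, adjusted 0.0338; r -0.86, or -0.89). For miR-99a it gave rho -0.74 (exact permutation p = 0.0458, adjusted 0.0840), with r -0.82, or -0.90. The shares with bases that the mouse hairpin does not encode gave rho -0.64, 0.64 and 0.69 for miR-99a, miR-100 and miR-125b, with exact permutation p adjusted to 0.118, 0.118 and 0.109. Each of these 4 calls was lost, with an adjusted p above 0.05, without day 10, 30, 60, 90 or 180, that of miR-100 length also without day 70 and that of miR-125b length also without day 110.

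The 5′ end sets the seed. At least 95.6% of miR-99a and 94.7% of miR-100 reads began at the annotated base, the lowest in rat. miR-125b began 1 base later in 1.66% of SSC reads, 2.25% of control culture reads and 1.27% and 2.02% in the CRISPR and TALEN lines. This was 4.93% at pre-leptotene, 6.94% at leptotene, 6.81% at zygotene and 5.76% at pachytene, with 6.11% for round spermatids and 6.35% for sperm. In rabbit testis it was 0.0939% to 0.221%, below each of the 10 mouse libraries.

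The seeds that the members share were carried by different miRNAs at different stages. Reads with the seed ACCCGUA were 2.31% of miRNA reads in SSCs, of which miR-99b gave 73.1%, and 9.46% in zygotene cells, of which miR-99a gave 58.6%. In sperm they were 7.46%, and miR-99a gave 83.1%. Of the 5 entries with the seed CCCUGAG, miR-125b, miR-125a and miR-351 were summed. Their reads were 0.616% of miRNA reads in SSCs, of which miR-125b gave 65.2%, 0.0895% in pachytene cells and 0.962% in sperm, where miR-125b gave 77.1%. In pre-leptotene, leptotene and zygotene cells miR-125a was the largest part of that sum, at 51.0%, 53.2% and 41.9%.

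Over the 10 mouse libraries the entries with levels most like each member, among 361 entries of mean level at least 10 RPM, were miR-10b-5p (Pearson's r of log2 levels 0.92), miR-455-3p (0.88) and miR-676-3p (0.86) for miR-99a. For miR-100 they were let-7g-5p (0.78), let-7d-3p (0.74) and miR-34c-3p (0.71), and for miR-125b miR-221-5p (0.98), miR-574-5p (0.96) and miR-196b-5p (0.96). The members were not among each other's nearest: r was 0.29 for miR-99a with miR-100, -0.23 for miR-99a with miR-125b and 0.03 for miR-100 with miR-125b. In the 8 rabbit libraries the nearest entry was miR-199a-5p (0.96) for miR-99a, miR-221-3p (0.82) for miR-100 and miR-30c-1-3p (0.82) for miR-125b. These correlations describe single libraries that share their scaling, and no test is attached.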

How the data were processed

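The authors deposited, for each library, distinct read sequences with their counts, which are not normalised; trimming and filtering steps are not given in the sources used here. Bowtie and genome builds of the 4 species are named without roles, per the submitters' processing notes, and RNA was extracted with TRIzol for Illumina small RNA libraries, per the labels' protocols. The lists were used as sequences, with no alignment. Mature sequences came from RefSeq (GRCm38.p6): 1679 names, 7 of under 18 nt left out, joined into 1660 entries where the first 18 nt are shared. The table is incomplete, and hairpin reads (2202 GENCODE M21 hairpins) were 1.09 to 1.84 times the listed miRNA reads. Age slopes were fitted with edgeR 4.0.16 on entries with at least 100 reads in 1 rabbit library, with library size set to miRNA reads, and checked on simulated data. Exact permutation tests are two-sided over all orders of the 8 ages; the smallest p they allow is 4.96e-05. Alternatives used DESeq2 1.42.0, TMM factors, other filters, read definitions, denominators and omissions of each age. A count of 0 was set to 3 counts in folds. Python 3.11.15 and scipy 1.17.1 gave the intervals. The named miRNAs are the members, their 3p arms, cluster partners, entries of the same seed, marker lists, and the 3 most similar entries (log2 of level plus 1) over the 10 mouse or 8 rabbit libraries. Members and lists were chosen with earlier results of these data known.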

Additional observations from a re-analysis of the deposited data

How the results depend on the processing

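Of the 10 member differences between mouse libraries past their fold, 8 stayed past it under each of the 6 other scalings or read definitions. The fall of miR-125b from SSC to pre-leptotene was -1.47 scaled to all reads, -0.57 with TMM factors and -0.73 with DESeq2 size factors. With the full mature sequence, miR-99a in control against wild type SSCs was 0.72. In rabbit, the slopes of miR-100 and miR-125b scaled to all reads were -1.77 and -2.19, and that of miR-100 with the full mature sequence -0.042. Omitting each age in turn gave slopes of -0.47 to -0.42 for miR-99a and -0.28 to 0.0776 for miR-125b, the last without day 180. Without the 2 ages farthest from the median they were -0.44 and 0.205 (miR-100 0.58). The cause of these changes was not tested. With the full mature sequence rho was -0.64 for miR-99a to miR-100, against -0.83, and -0.95 for the pair to miR-125b, against -0.55. Omitting each age, rho ran from -0.96 to -0.75 for miR-99a to miR-100, -0.96 to -0.61 for miR-99a mean length, -0.96 to -0.82 for its annotated end, -0.89 to -0.79 for miR-100 mean length, -0.96 to -0.75 for its annotated end, -0.93 to -0.82 for miR-125b mean length and 0.54 to 0.93 for its tails. No paired analysis was possible because each group is 1 library. Depth limits miR-125b in pachytene cells and round spermatids and the 3p arms most.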
